A study of Mus musculus with 12 samples.

Results

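The regions described here were open chromatin in both kinds of helper T cell made in culture, Th1 and Th2, and had no peak in the naive CD4+ T cells they were made from. They were chosen by the presence and absence of called peaks. Overlapping peaks (1 bp or more) of 12 ATAC-seq peak lists were merged on chromosomes 1 to 19 and X into 110642 regions. A region was kept where all 8 Th1 and Th2 libraries had a peak and none of the 4 naive libraries had one, which left 6371 regions. ATAC-seq inserts adapters into accessible DNA with the Tn5 transposase, and a peak is a stretch where the inserts pile up above the caller's background. The lists give no read depth, so the lack of a peak does not show that the DNA was closed.

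The study compared mice with a deletion of a super-enhancer of Ets1 with wild-type mice, all C57BL/6J by the labels, with age and sex not given in the sources used here. Naive CD4+ T cells came from spleen by negative selection. Th1 cells were naive cells kept for 6 days on anti-CD3 with anti-CD28, IL-12 at 10 ng/mL and IL-2 at 1 ng/mL, and Th2 cells were kept for as long with anti-CD28, IL-4 at 50 ng/mL and an antibody against interferon gamma. The 6 groups (naive, Th1 and Th2, each wild type and knockout) had 2 libraries each, named below by cell type, genotype and number. The 2 naive libraries of a genotype were technical repeats of 1 biological sample by their titles, and the others were 2 biological replicates per group. The 2 Th2 knockout libraries carry a title that says Th1 and a source name that says Th2, and were taken as Th2. The coordinates of the deletion were not used here. Since every chosen region had a peak in all 4 knockout Th1 and Th2 libraries, none of them is a region that lost its peak in the knockout.

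A naive CD4+ T cell that meets antigen starts a program shared by all effector cells before cytokines set it on a Th1 or Th2 path. T cell receptor and CD28 signals activate AP-1 (Fos, Jun and BATF proteins), NFAT and NF-kB, factors that bind enhancers and promoters and are known to help open closed chromatin. The Th1 path then adds STAT4 and T-bet, and the Th2 path adds STAT6 and GATA3. Chromatin open in both cell types and not in naive cells is where changes shared by both culture conditions can be read.

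Naive and polarized libraries also differed in a code in the deposited peak names that looks like a sequencing run. It was 1 code in all 4 naive lists and another in all 8 polarized lists, so polarization and that code cannot be told apart. The naive lists held 41075 to 56195 peaks and the polarized lists 34746 to 56357, the shortest being Th1 wild-type 2. The median −log10 q-value of a list was 4.93 to 9.78 in naive and 3.39 to 4.14 in polarized libraries. As a check of the labels, regions in or within 20 kb of 6 Th2 marker genes (Gata3, Il4, Il5, Il13, Il4ra, Il1rl1) were open at 40 to 45 places in Th2 libraries and at 25 to 34 in Th1 libraries. For 5 Th1 markers the counts were 26 to 34 in Th1 and 25 to 28 in Th2 libraries, so these ranges overlapped. For 5 naive markers they were 47 to 79 in naive and 30 to 39 in polarized libraries. Around 5 B cell markers naive knockout libraries had 22 and 27 regions, naive wild-type libraries 16 and 14, and polarized libraries 8 to 12. Whether other cells in the naive samples bear on the choice of regions was not tested.

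A small group of these regions lay on promoters, and their sequence could be read. RefSeq promoter windows (GRCm38.p6, 250 bases before to 50 after a gene start) were covered for at least 150 of their 300 bases at 141 windows, from 121 regions and 128 genes, of which 83 code for protein. The AP-1 motif TGANTCA (N is any base, either strand) was in 38 of the 141, or 27.0% (95% exact binomial interval 19.8 to 35.1%). It was in 7.85% of all 32619 promoter windows, in 4.16% of the 9748 covered by regions open in all 12 libraries, and in 7.80% of the 141 covered by regions with a peak in all 4 naive and no polarized library. Below are the 250 bases before the start of 7 of these genes, 5′ to 3′ on the gene's strand with the AP-1 match in capitals, shown because they carry the motif that separates the sets. They were chosen after their values were seen, to include immune genes and genes that differ between Th1 and Th2.
Cd80: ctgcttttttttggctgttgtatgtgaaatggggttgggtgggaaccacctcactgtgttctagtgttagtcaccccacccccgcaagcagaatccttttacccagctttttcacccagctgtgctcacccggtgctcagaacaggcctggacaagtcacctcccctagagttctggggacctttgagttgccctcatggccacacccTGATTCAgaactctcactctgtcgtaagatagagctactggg
Il6: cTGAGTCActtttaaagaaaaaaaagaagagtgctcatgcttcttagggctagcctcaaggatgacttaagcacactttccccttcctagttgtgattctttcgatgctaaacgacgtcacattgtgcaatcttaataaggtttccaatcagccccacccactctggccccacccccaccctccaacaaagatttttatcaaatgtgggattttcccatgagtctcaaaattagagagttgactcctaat
Itgax: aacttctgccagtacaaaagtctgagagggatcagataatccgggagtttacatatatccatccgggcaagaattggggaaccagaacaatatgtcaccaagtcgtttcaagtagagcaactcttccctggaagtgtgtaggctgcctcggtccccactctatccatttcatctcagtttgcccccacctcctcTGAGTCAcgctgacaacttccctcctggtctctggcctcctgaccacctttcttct
Olr1: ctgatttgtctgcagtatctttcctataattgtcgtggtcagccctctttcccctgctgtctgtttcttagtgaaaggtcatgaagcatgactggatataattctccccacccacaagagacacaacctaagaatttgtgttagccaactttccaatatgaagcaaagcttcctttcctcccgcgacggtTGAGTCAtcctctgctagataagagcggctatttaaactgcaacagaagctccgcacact
Mt2: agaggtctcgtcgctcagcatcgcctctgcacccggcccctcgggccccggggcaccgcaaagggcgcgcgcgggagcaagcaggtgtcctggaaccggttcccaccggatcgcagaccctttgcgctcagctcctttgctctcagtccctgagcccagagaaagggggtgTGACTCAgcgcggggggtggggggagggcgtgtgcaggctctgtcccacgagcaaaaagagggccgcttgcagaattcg
Rdh1: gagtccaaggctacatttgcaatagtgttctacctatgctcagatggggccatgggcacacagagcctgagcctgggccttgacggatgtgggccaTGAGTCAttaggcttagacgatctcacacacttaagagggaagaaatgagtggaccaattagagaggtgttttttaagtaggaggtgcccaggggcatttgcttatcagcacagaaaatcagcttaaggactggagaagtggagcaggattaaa
Bpifc: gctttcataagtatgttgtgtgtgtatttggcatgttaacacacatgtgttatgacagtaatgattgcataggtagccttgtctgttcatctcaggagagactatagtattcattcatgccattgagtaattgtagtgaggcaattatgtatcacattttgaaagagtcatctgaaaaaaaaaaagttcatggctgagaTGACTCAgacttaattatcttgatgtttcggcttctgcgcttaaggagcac

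In order, these genes encode the CD28 ligand CD80, interleukin 6, integrin alpha X (CD11c), the oxidized LDL receptor LOX-1, metallothionein 2, a retinol dehydrogenase, and a member of the BPI-fold family. The windows shown are chr16:38458683-38458932 (Cd80, plus strand), chr5:30012864-30013113 (Il6, plus), chr7:128129300-128129549 (Itgax, plus), chr6:129507166-129507415 (Olr1, minus), chr8:94172368-94172617 (Mt2, plus), chr10:127759513-127759762 (Rdh1, plus) and chr10:86011861-86012110 (Bpifc, minus). The match began 42 bases before the start at Cd80, 56 at Itgax, 60 at Olr1, 79 at Mt2 and 51 at Bpifc. It lay farther out at Rdh1, 154 bases before the start, and at Il6, at the far end of the stretch shown. A match is a description of the letters in the window and not evidence of a bound factor.

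For contrast, 2 immune genes with a covered promoter and no AP-1 match in the window are shown without capitals: Ptgs2, the inducible cyclooxygenase COX-2 (chr1:150099781-150100030, plus strand), and Zbtb32, a zinc finger repressor of lymphocytes (chr7:30592943-30593192, minus strand).
Ptgs2: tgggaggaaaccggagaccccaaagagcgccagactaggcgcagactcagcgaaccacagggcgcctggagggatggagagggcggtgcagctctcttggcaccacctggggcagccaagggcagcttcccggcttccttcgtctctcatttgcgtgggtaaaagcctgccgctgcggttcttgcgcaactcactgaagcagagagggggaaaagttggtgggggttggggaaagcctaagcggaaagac
Zbtb32: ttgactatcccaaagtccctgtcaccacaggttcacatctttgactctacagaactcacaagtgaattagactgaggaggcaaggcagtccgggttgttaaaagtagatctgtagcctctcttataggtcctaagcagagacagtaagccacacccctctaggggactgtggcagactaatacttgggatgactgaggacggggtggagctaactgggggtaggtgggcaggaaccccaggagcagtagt

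Other motifs were read in the same windows. The TCF/LEF motif ATCAAAG, whose factors TCF-1 and LEF-1 belong to naive T cells, was in 1 of 141 (0.709%, interval 0.0180 to 3.89%) against 13 of 141 (9.22%) in the naive-only promoters and 3.76% of all promoters. The ETS core CCGGAA was in 6.38%, near the 4.96% of the naive-only promoters. It was in 34.2% of promoters open in all 12 libraries and 15.0% of all. RUNX (TGTGGT) was in 19.1% against 16.6% of all, and NFAT (TGGAAA) in 24.1% against 21.6% of all. IRF (GAAANTGA) and STAT (TTCNNNGAA) were in 10.6% each, against 5.90% and 8.34% of all, with both intervals running from 6.08 to 16.9%. In the naive-only promoters RUNX was in 26.2%, NFAT in 24.1%, IRF in 9.22% and STAT in 4.26%. NF-kB (GGGANTTCC) was in 2.84% against 1.69%, the motif AGATAA of the GATA factors in 12.1% against 11.2%, and the T-box motif AGGTGTGA in 0.709% against 1.28%. In the naive-only promoters these shares were 0.709%, 16.3% and 2.13%. For CRE (TGACGTCA) the shares were 2.13% and 1.80%, for KLF (GGGTGTGG) 4.26% and 3.57%, and for the E-box CACGTG 6.38% and 7.20%. All 13 motifs were searched on both strands, and the AP-1 and CRE motifs cannot match at the same bases.

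**Figure D1:**
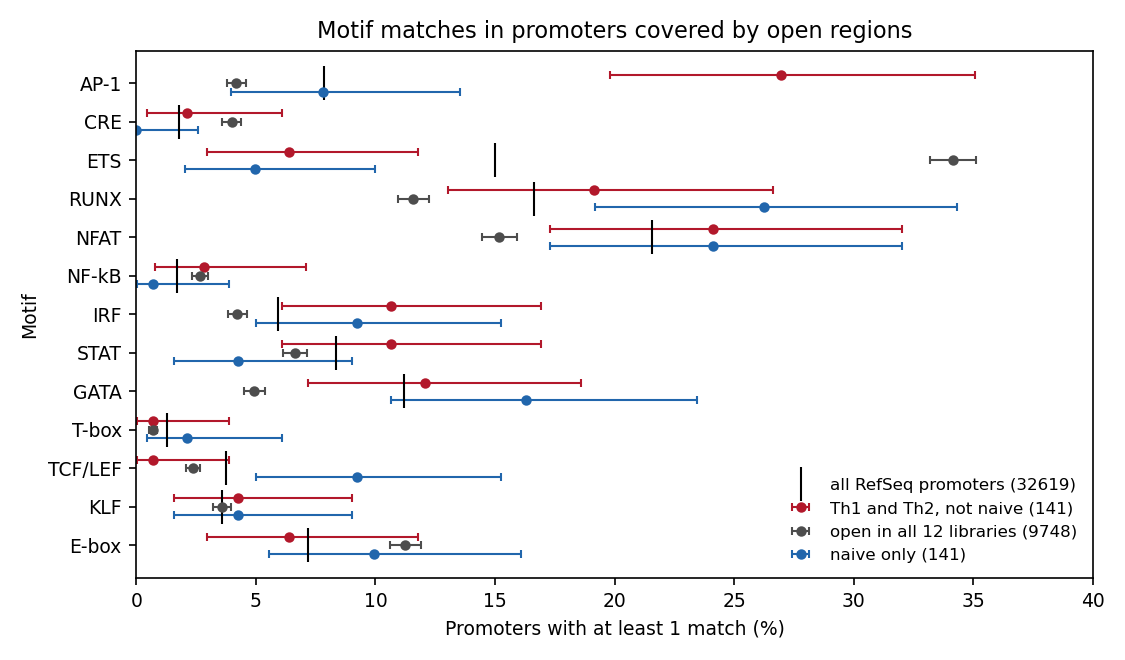
Share of promoter windows with at least 1 match to each of 13 motifs, for promoters covered by regions open in Th1 and Th2 and not naive cells (red), in all 12 libraries (grey) and in naive cells only (blue), with 95% exact binomial intervals; black ticks are all RefSeq promoters. The AP-1 share of 27.0% in red lies to the right of the other sets, and the TCF/LEF share of 0.709% lies left of the 9.22% of the naive-only set.

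Base composition moved with the sets. Median GC content of the windows was 54.3% for the chosen regions, 62% for regions open in all 12 libraries, 49.3% for naive-only regions and 53% for all promoters. Among windows with a GC content up to 54.3%, the AP-1 motif was in 29 of 71 of the chosen regions (40.8%) and in 157 of 1863 of those open in all 12 (8.43%). Some windows of 1 gene or region overlap each other. With 1 window per region, a choice made after seeing the data, the share was 28.1% (34 of 121). Within the 141 windows, the ones with the motif also had stronger peaks. Strength is given here as a percentile rank, 0 for the weakest and 100 for the strongest peak score within a library among the 23077 regions open in all 8, because scores are not comparable between libraries. The mean rank over the 8 libraries had a median of 45.3 for the 38 windows with the motif (8.37 to 96.4) and of 21.2 for the 103 without it (2.67 to 91.0), so the ranges overlapped.

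The covered promoters differed widely in strength. At Cd80 the ranks were 82.0, 75.3, 44.5 and 56.4 in Th1 wild-type 1 and 2 and knockout 1 and 2, and 41.3, 47.3, 29.8 and 25.1 in the Th2 libraries in the same order. Both knockout libraries were below both wild-type libraries in each cell type there. At Il6 the ranks were 0.804, 17.1, 9.59 and 8.34 in Th1 and 31.4, 15.7, 25.4 and 27.8 in Th2, with the groups overlapping through Th1 wild-type 2 and Th2 wild-type 2. At Itgax they were 2.14, 1.70, 6.30 and 0.910 in Th1 and 19.7, 29.6, 41.0 and 31.8 in Th2, so every Th2 library was above every Th1 library. Olr1 had the same order, with 61.0, 27.2, 76.6 and 56.4 in Th1 and 97.6, 98.3, 95.2 and 94.7 in Th2. Mt2 had the opposite one, with 76.1, 68.0, 67.6 and 46.7 in Th1 and 14.5, 16.8, 37.8 and 29.2 in Th2. Rdh1 ranked 8.09, 25.5, 2.12 and 47.9 in Th1 and 72.8, 81.6, 77.8 and 62.2 in Th2, again without overlap. Bpifc was strong everywhere, from 85.0 to 98.5. Of the promoters without the motif, Ptgs2 ranked 26.2, 2.41, 40.3 and 36.7 in Th1 and 32.7, 3.69, 6.46 and 8.73 in Th2. Zbtb32 ranked 23.4, 25.5, 28.3 and 50.2 in Th1 and 51.2, 52.2, 49.4 and 10.9 in Th2. In both of these the Th1 and Th2 ranges overlapped.

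Of the 23077 regions with a peak in all 8 polarized libraries, the chosen ones were 27.6%, and 14561 others had a peak in all 4 naive libraries too. Among regions with no naive peak, 14743 had a peak in 1 polarized library, 2750 in 6, 2825 in 7 and 6371 in 8. Among regions open in all 8, 610 had a peak in 1 naive library, 765 in 2 and 770 in 3. Just outside the rule, 1615 of the 2825 regions with 7 polarized peaks lacked only the one in Th1 wild-type 2, and the number lacking only another library was 74 to 266. Their peaks were also weaker, at median percentiles of 31.0 to 59.1 within the lists against 54.9 to 79.1 for the chosen regions. The 610 regions with a single naive peak had it among the weak ones, at median percentiles of 14.8 or below in each of the 4 naive lists. These margins describe the rule and carry no test.

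**Figure D2:**
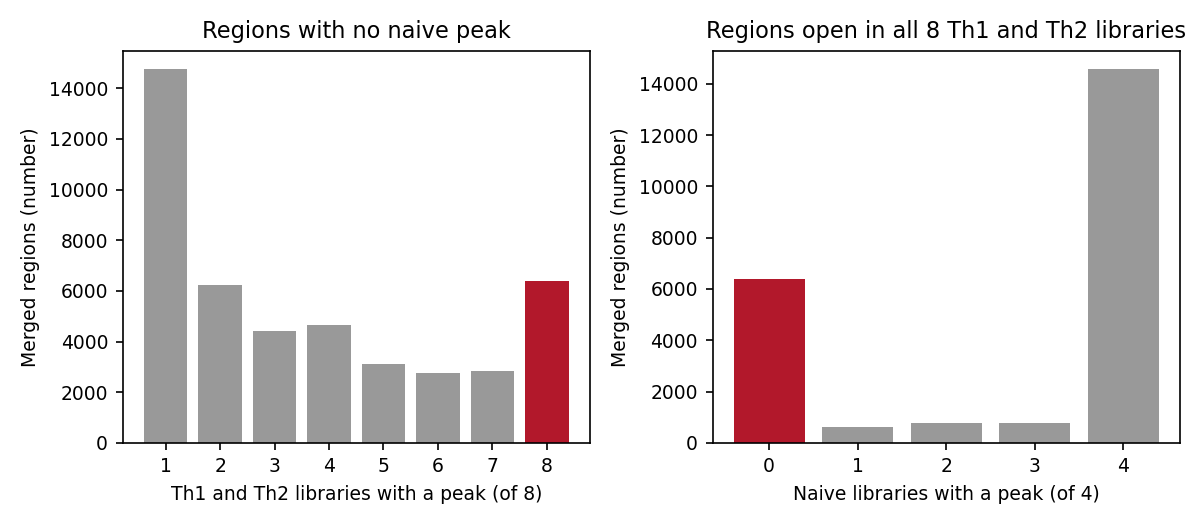
Number of merged regions by the number of libraries with a peak, for regions without a naive peak (left, by Th1 and Th2 libraries) and for regions open in all 8 Th1 and Th2 libraries (right, by naive libraries). The red bar in both panels is the set of 6371 regions, which stands above the bars for 7 polarized libraries (2825) and for 1 naive library (610).

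Most of the chosen regions lay far from gene starts, with 82.9% beyond 10 kb against 72.2% of all merged regions. Of the 6124 outside chromosome 18, for which no gene starts were used, 156 (2.55%, 95% exact binomial interval 2.17 to 2.97%) were within 1 kb of a protein-coding gene start. The share was 50.7% among 14159 regions open in all 12 libraries, 2.84% among 5488 naive-only regions and 11.5% among all 107030 merged regions. The median distance was 40.6 kb for the chosen regions and 0.638 kb for regions open in all 12. It was 36.3 kb for naive-only regions and 29.3 kb for all merged regions. The starts cover 17274 of 21631 protein-coding genes, so distances are upper limits. Regions found in 1 state only, naive or polarized, were thus mostly distal, and close to 50% of the regions shared by all libraries were not. Of the 6371 regions, 58.2% overlapped the body of a protein-coding gene, 8.05% only that of a long non-coding RNA gene, and 33.7% neither. The shares were close to these over all 110642 merged regions, at 60.8%, 7.5% and 31.7%. Exon and intron were not read, as the gene table gives none. The regions were narrow, with a median width of 679 bp (271 to 2241), against 978 bp for regions open in all 12 and 496 bp for naive-only regions. Each was mostly a single peak, and 93.2% had exactly 1 peak in each of the 8 libraries.

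**Figure D3:**
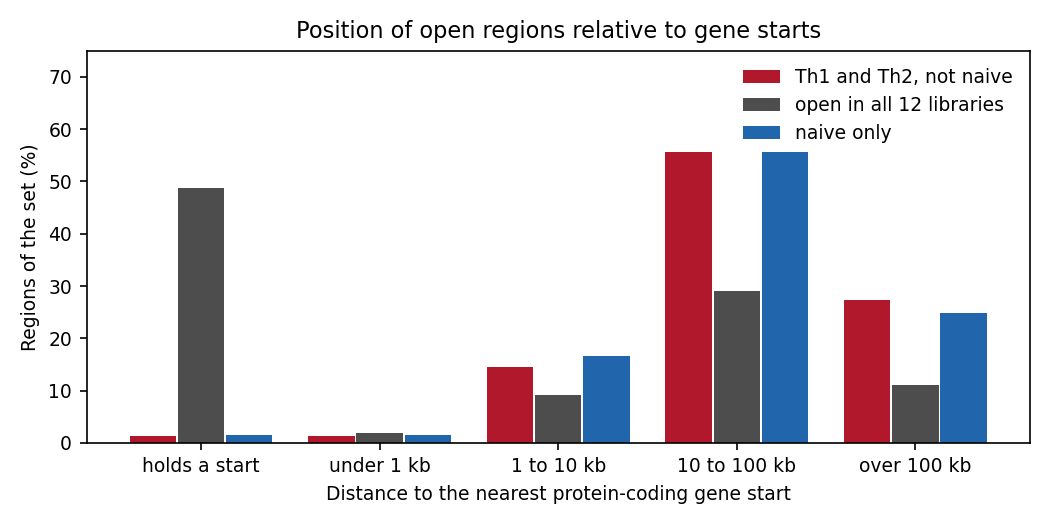
Share of regions by distance to the nearest protein-coding gene start, for regions open in Th1 and Th2 and not in naive cells (red), in all 12 libraries (grey) and in naive cells only (blue). A start lies inside 1.27% of the red, 48.8% of the grey and 1.40% of the blue regions, and 55.7%, 29.1% and 55.5% lie 10 to 100 kb away.

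The nearest naive peak was at a median of 7.06 kb, within 1 kb for 733 regions (11.5%), and beyond 20 kb for 1394 (21.9%). Regions with a peak in naive cells only lay at a median of 3.76 kb from a polarized peak, with 17.5% within 1 kb. These distances cannot be compared directly, since polarized peaks came from 8 lists and naive peaks from 4. More lists shorten such a distance by construction. Members lay at a median of 41.8 kb from the nearest other member, a distance that depends on their number, 6371. On chromosome 13 they were 35.4% of the regions open in all 8 polarized libraries and on chromosome 17 they were 18.1%, the highest and lowest of the 20 chromosomes. The hairpins of 4 microRNA genes, Mir491, Mir6390, Mir6964 and Mir361, lay inside a region.

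Joining regions with less than 20 kb between neighbours left 4318 regions alone, and made 720 pairs and 5 stretches of 6 or more. The longest run of regions was 8 over 48.4 kb at chr5:53393398-53441762, outside any protein-coding gene, with Rbpj (the DNA-binding partner of Notch) as the nearest at 114 kb. The next was 7 over 66.1 kb at chr15:62222606-62288704, 232 kb from Myc, the growth-promoting transcription factor. The first stretch also held 1 region with a naive peak and the second 4. The other 3 had 6 regions each, in Abcg3 (chr5:104938483-104974014), in Atg10, an autophagy enzyme (chr13:91147321-91206683), and at chr2:128401122-128466077, 125 kb from Spdye4c.

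Among protein-coding genes with 20 kb on each side, 4319 had at least 1 region and 90 had 5 or more. Snd1 (a nuclease of RNA-protein complexes) and Lpp (an adaptor of cell adhesions) had the most, with 11 each of 14 and 18 regions open in all 8 libraries. Stard13 (10 of 12), Aopep (10 of 16), Atxn1 (10 of 16) and Inpp4b (10 of 21) came next. Inpp4b encodes a phosphoinositide phosphatase. Ebf1, Fhit, Ptprk and Itpr1 had 9, and Itpr1 encodes the IP3 receptor that releases calcium from its stores. Genes with 8 were Pde1a, Hivep3, Sox5, Atg10, Elmo1, Maml2, Nfia, Etv6 and Pde4b, and Fars2 had 7. At Pde1a, a calcium-dependent phosphodiesterase, all 8 regions open in the polarized libraries lacked a naive peak. These are long genes: the median length of the 20 was 418 kb, against 20.9 kb over protein-coding genes with any region. No protein-coding gene lay within 20 kb of 1517 regions (23.8%).

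Gene lists of T cell biology were read the same way, as the share of regions open in all 8 libraries that had no naive peak, beside 27.6% over all regions. No list was tested, and the intervals (95% exact binomial) cover counting only. Th2 genes had 20 of 49 (40.8%, interval 27.0 to 55.8%) and Th1 genes 11 of 46 (23.9%, interval 12.6 to 38.8%). Within gene bodies alone the Th2 share was 30%, or 6 of 20. Chemokine receptor and adhesion genes had 20 of 48 (41.7%, interval 27.6 to 56.8%). Near the background were effector transcription factors (16 of 57, 28.1%), naive T cell genes (22 of 77, 28.6%), NFAT, Nr4a, Egr and NF-kB factors (15 of 59, 25.4%), costimulatory genes (19 of 76, 25%) and IL-2 and other cytokine genes (11 of 45, 24.4%). AP-1 and BATF genes had 7 of 36 (19.4%), cytotoxic genes 4 of 18 (22.2%) and cell cycle genes 8 of 47 (17.0%). T cell identity genes (7 of 49, 14.3%), housekeeping genes (3 of 25, 12%) and glycolysis and nutrient genes (6 of 53, 11.3%) had the fewest of the lists with 20 or more such regions.

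Lists for other cell types gave 11 of 17 for B cell genes (64.7%, interval 38.3 to 85.8%), 4 of 10 for myeloid, 3 of 11 for NK cell and 0 of 8 for red cell genes. The B cell count came from Ebf1 (9), Bank1 (1) and Pax5 (1). Ebf1 encodes a B lineage transcription factor and is also 390 kb long. Whether other cells took part in these counts was not tested.

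**Figure D4:**
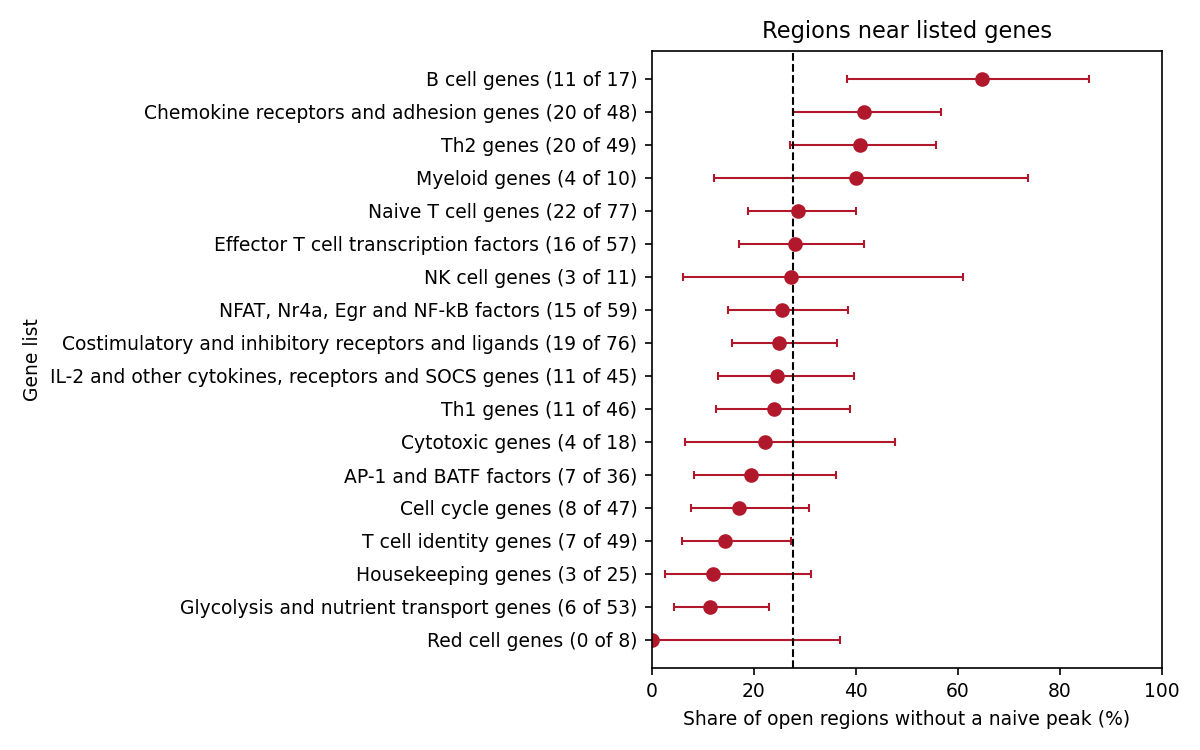
Share of regions open in all 8 Th1 and Th2 libraries that had no naive peak, for regions within 20 kb of the genes of 18 lists, with 95% exact binomial intervals and the counts in brackets; the dashed line is the 27.6% over all regions. The B cell, chemokine and adhesion, Th2 and myeloid lists have the highest shares, and the last rests on 10 regions.

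Among Th2 genes, 10 of 17 had a region. Of their 20 regions, 0 had all Th2 ranks above all Th1 ranks and 1 had the reverse. Over all chosen regions these shares were 17.3% and 4.38%. Il24, which encodes an IL-10 family cytokine, had 4, which were all the regions open in all 8 libraries there, and its neighbour Il10 had 2 of 3. The region at chr1:130902207-130903035, within 20 kb of Il24 and nearest to its neighbour Il20, ranked 97.7, 72.7, 87.2 and 90.7 in Th1 and 92.1, 82.4, 92.5 and 89.9 in Th2 and these ranges overlapped. Il1rl1, the gene of the IL-33 receptor, had 4 of 6. One of them, chr1:40386025-40386780, went the other way from the gene's Th2 role, with 58.1, 46.0, 57.9 and 85.3 in Th1 and 1.28, 2.43, 0.871 and 9.80 in Th2. Pparg, a lipid-sensing nuclear receptor, had 2 of 3. Among Th1 genes, Il12rb2, the signalling chain of the IL-12 receptor, had 5 of 10. Its region at chr6:67395991-67396573 ranked 78.4, 84.2, 73.2 and 79.5 in Th1 and 52.2, 34.2, 43.2 and 48.8 in Th2. A region inside the same gene, chr6:67291978-67292540, had the opposite order, with 4.28, 36.4, 13.7 and 13.1 in Th1 and 72.8, 56.5, 51.3 and 75.1 in Th2. Il18rap (IL-18 receptor) and Stat4 (the IL-12 signal transducer) had 2 each, and Tbx21, the gene of T-bet, had 1.

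Integrin genes made up most of the adhesion list. Itga2 and Itga1, collagen-binding integrin chains that lie next to each other on chromosome 13, had 5 of 9 and 4 of 7, with 1 region counted for both. Itgav, a chain of fibronectin and vitronectin receptors, had 4 of 7, and Itgb1, the shared beta chain, 2 of 3. In 3 of the 4 regions at Itgav every Th2 library ranked above every Th1 library. Over the whole chemokine receptor and adhesion list, 4 of the 20 regions had this order and 2 the reverse. The shares were 17.3% and 4.38% over all chosen regions, and 7.6% and 7.51% over all regions open in all 8. The Itgav region at chr2:83722892-83723441 ranked 22.0, 34.8, 31.5 and 16.8 in Th1 and 80.4, 76.0, 82.9 and 93.9 in Th2. At Itga2 neighbouring regions differed, with chr13:114870839-114871574 at 54.0, 12.5, 41.7 and 10.7 in Th1 and 84.9, 87.3, 74.2 and 91.8 in Th2. The next region, chr13:114878624-114879449, ranked 94.2, 93.4, 96.7 and 85.7 in Th1 and 74.0, 77.0, 61.5 and 48.8 in Th2.

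Signal-dependent factors and receptors also had such regions. Nfkb1, the NF-kB p105 gene, had 5 of 11, and Nfatc2, an NFAT gene, 4 of 7. The strongest at Nfatc2, chr2:168491642-168492485, ranked 95.2, 98.3, 94.7 and 98.2 in Th1 and 95.6, 95.9, 96.0 and 96.1 in Th2, with the ranges overlapping. Batf3, a BATF factor, had 3 of 6, Bach1 2 of 4, and Jun and Fosl1 1 each. Prdm1 (Blimp-1) and Rora had 3 of 7 and 3 of 9, and Epas1 (HIF-2 alpha) 3 of 4. The costimulatory receptor gene Cd28 had 3 of 6, and its ligand genes Cd80 and Cd86 had 2 of 3 and 2 of 4. Genes of naive cells had such regions too. Bach2, a repressor that keeps T cells from effector fates, had 7 of 18, and Foxp1, a quiescence factor, 4 of 17. Those genes also had 7 and 11 regions with a peak in all naive and no polarized libraries. The strongest at Foxp1, chr6:99406014-99406719, ranked 91.9, 95.6, 92.9 and 96.8 in Th1 and 98.5, 98.6, 97.3 and 97.6 in Th2.

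In strength the chosen regions were not equal in the 2 cell types. Their median rank was 44.6, 39.3, 47.2 and 45.4 in the Th1 libraries and 56.1, 55.7, 56.7 and 56.5 in the Th2 libraries, with no overlap. For the 16706 other regions open in all 8 the order was the reverse by construction of the ranks, at 51.1 to 54.6 in Th1 and 47.6 to 48.3 in Th2. All 4 Th2 ranks were above all 4 Th1 ranks at 1105 chosen regions (17.3%), against 7.6% of all 23077 and 3.88% of the others. All Th1 ranks were above all Th2 ranks at 279 (4.38%), against 7.51% of all and 8.70% of the others. Beyond 10 kb from the protein-coding gene starts used here, the Th2 share was 17.4% of 5078 chosen and 6.48% of 7251 other regions. The Th1 shares there were 4.47% and 6.48%. Promoters of genes without a start in that set were not left out. The Th1 lists were also shorter (34746 to 46006 peaks against 51600 to 56357). With the 34746 highest-scoring peaks of each library, a choice made after seeing the data, 5288 regions met the rule. Of these, 972 (18.4%) were higher in Th2 and 168 (3.18%) in Th1. Among the other regions open in all 8 the shares were then 3.55% and 10.2%.

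**Figure D5:**
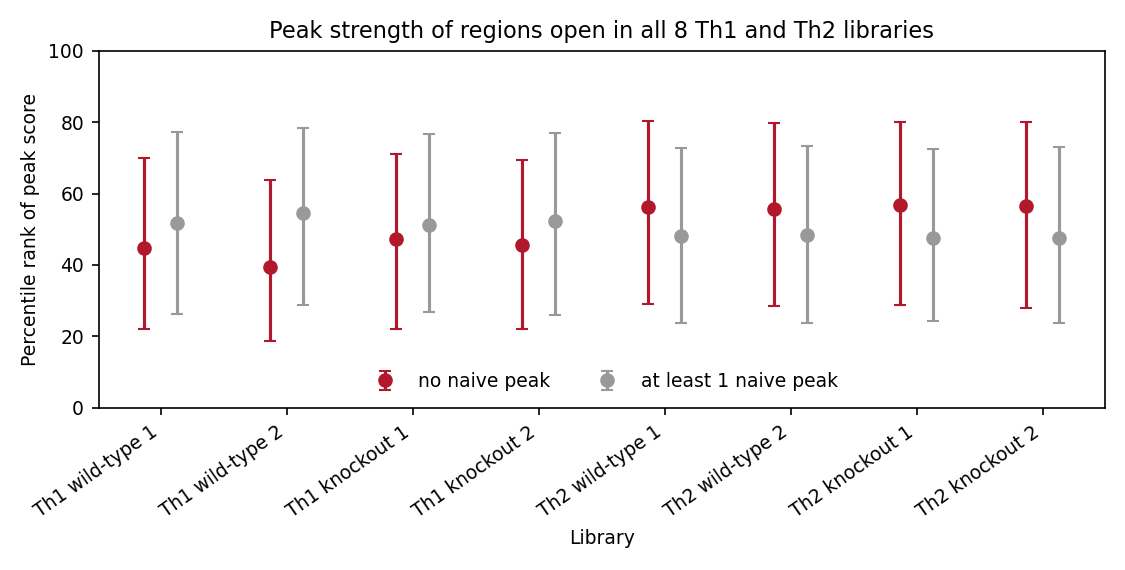
Percentile rank of the peak score in each Th1 and Th2 library for regions open in all 8, with points for the median and bars for the quartiles; red are the 6371 regions without a naive peak, grey the 16706 with at least 1. Red medians are 39.3 to 47.2 in Th1 and 55.7 to 56.7 in Th2 libraries, and the quartile ranges overlap throughout.

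The largest difference toward Th2 was in Il7r, the gene of the IL-7 receptor alpha chain. The region at chr15:9520324-9520919 ranked 37.0, 2.41, 3.54 and 2.39 in Th1 and 93.1, 97.9, 95.5 and 98.0 in Th2. The next toward Th2 were in N4bp2l2 (ranks 6.97, 1.11, 26.7 and 10.7 in Th1 and 93.8, 97.0, 95.2 and 91.3 in Th2), Ube2cbp, Setbp1 and Vapb. Toward Th1 the largest was in Mitf, a transcription factor gene of the MiT family, at chr6:97952738-97953326. It ranked 84.1, 96.1, 86.7 and 92.7 in Th1 and 10.1, 3.69, 1.53 and 4.18 in Th2. Regions in Pik3cb, a PI3-kinase catalytic subunit gene, and nearest to Rps29, Zfp945 and Vav3 followed, with Th1 minus Th2 differences of 72.2, 70.2, 70.1 and 68.6 rank points.

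Some of the regions were among the strongest peaks of every library. The highest mean rank, 99.8, was in Tmtc4 (chr14:122935642-122936415), with 99.7 to 99.9 in all 8 libraries. Next came regions in Tmem30a, a flippase subunit gene (99.7), near Ypel5 (99.6), near S100a10 (99.6) and in Sass6, a centriole gene (99.5). Regions nearest to Corin, Mrpl39, Slc9a9 and Rapgef5 and one in Tbck completed the first 10, with mean ranks of 99.3 to 99.5. In each Th1 library 340 to 462 of the 6371 chosen regions were in the top 10% of ranks, and in each Th2 library 830 to 850. Over all 23077 regions open in all 8 this share is 10% by definition. The chosen regions were below it in every Th1 library and above it in every Th2 library.

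In few of these regions did knockout and wild-type libraries separate in both cell types. Both knockout ranks were below both wild-type ranks in Th1 and in Th2 at 172 regions (2.70%), against 3.38% of all regions open in all 8 and 3.63% of the 16706 others. They were above at 275 (4.32%), against 3.24% of all and 2.83% of the others. The Cd80 promoter region was among those below. So was one in Nfatc2 (chr2:168488553-168488979), with 40.9 and 39.3 in Th1 wild type, 6.30 and 8.34 in Th1 knockout, 36.3 and 50.3 in Th2 wild type, and 17.0 and 33.1 in Th2 knockout.

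Within 1 Mb of Ets1 itself, 14 of 29 regions open in all 8 libraries had no naive peak, beside 27.6% over all such regions. The difference from that share was not tested. In Ets1 with 20 kb on each side 2 of 9 (22.2%) had none, and these 2 were inside the gene. The first, chr9:32669340-32669886, ranked 53.0, 69.7, 60.1 and 63.8 in Th1 and 91.4, 85.8, 82.5 and 84.5 in Th2, without overlap. The second, chr9:32744954-32745601, ranked higher in knockout in both cell types, at 38.2 and 44.7 against 45.8 and 66.3 in Th1 and at 37.6 and 34.2 against 63.0 and 81.9 in Th2. Of the neighbours, 3 were in Fli1, the next ETS-family gene, and 2 in Arhgap32. A region 242 kb from Ets1, chr9:32999960-33000747, was also higher in the knockouts, at 70.6 and 71.2 against 85.5 and 82.8 in Th1 and at 85.3 and 84.6 against 90.6 and 87.4 in Th2. The weakest of the 14, chr9:32897138-32897867, had a mean rank of 17.9 and ranges that overlapped in all comparisons.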

How the data were processed

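Each of the 12 deposited files was the MACS2 peak list of 1 ATAC-seq library. Per the submitters' processing notes, the authors aligned reads to GRCm38 with BWA and used Picard and MACS2, with versions and settings not given in the sources used here. The authors' lists give per peak a score, a fold enrichment (ratio) over local background, and the −log10 p-value and −log10 q-value. In the deposited lists the score equals the −log10 q-value multiplied by 10, decimals dropped. These values are scaled within a library, so strength was ranked within each library over the same 23077 regions.

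Peaks on Y and mitochondrial DNA were left out. Peaks sharing 1 bp were merged, groups followed the labels, and no test was run, since the regions were selected on these lists. Same-numbered libraries were not paired, except in the alternative called the replicate block. The members and gene lists were chosen with earlier results of these data known. Genes named in the text are the 20 protein-coding genes with most regions (body and 20 kb on each side), 4 per list, the 10 highest mean ranks, 5 per direction of non-overlapping Th1 and Th2 ranks, the 5 longest stretches, and regions within 1 Mb of Ets1. Genes at covered promoters were picked after their values were seen. Alternatives were q-value limits, equal lists, coverage, other rankings, and leaving out libraries. Scripts were tested on simulated lists. Gene positions and sequences came from RefSeq (GRCm38.p6). Versions were 3.11.15 for Python, 2.3.3 for pandas, 2.4.6 for numpy, 3.10.9 for matplotlib and 1.17.1 for scipy.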

Additional observations from a re-analysis of the deposited data

Results flagged for a closer look

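Among the regions at the 9 printed promoters and those named for their rank or for lying near Ets1, 4 had knockout and wild-type ranks that did not overlap in either cell type and moved in opposite directions in Th1 and Th2. In the Sass6 region the knockout minus wild-type mean rank was 0.464 in Th1 and -0.349 in Th2 rank points. In the Setbp1 region it was 5.62 in Th1 and -6.96 in Th2. At the Mt2 promoter it was -14.9 in Th1 and 17.8 in Th2, and at the Zbtb32 promoter 14.8 in Th1 and -21.6 in Th2. These differences between cell types were not tested. Over all 6371 regions, 237 (3.72%) were higher in Th1 knockout and lower in Th2 knockout, against 2.53% of the 16706 other regions open in all 8 libraries, and 178 (2.79%) had the reverse, against 2.95%.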

How the results depend on the processing

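Depth is unknown and no result has a test, so limits concern counts. The number of regions was 6371, or 27.6% of those open in all polarized libraries used. It was 3858 (32.4%) where peaks had to cover 50% of a region. With wild-type libraries only it was 7990 (30.6%), and with knockout libraries only 11047 (37.9%). Without 1 library it was 6453 to 7992 (27.7 to 30.8%), the highest without Th1 wild-type 2. With fewer libraries the rule is easier to meet by construction. The share within 1 kb of a gene start was 2.08% at a q-value of 0.01 or less, 3.02% with 50% coverage, 3.40% with wild-type and 3.43% with knockout libraries only, 2.50% to 2.71% without 1 library, 1.45% within 200 bp and 8.28% within 5 kb. The counts of ranks below are given with their share of the chosen regions against that of all regions open in all 8. Regions with all Th2 ranks above Th1 numbered 720 when ranked by fold (11.3% against 5.29%) and 476 by width (7.47% against 4.23%). They numbered 1863 with the replicate block (29.2% against 14.6%), 2533 in wild-type (39.8% against 22.4%) and 2435 in knockout libraries (38.2% against 22.8%). Without 1 library they numbered 1263 to 1436 (19.8 to 22.5% against 9.27 to 10.3%). Those with all Th1 ranks above Th2 numbered 572 with the replicate block (8.98% against 16.3%). They numbered 954 in wild-type (15% against 25.6%) and 1052 in knockout libraries (16.5% against 24.8%). Without 1 library they numbered 344 to 380 (5.4 to 5.96% against 9.32 to 10.8%), and with equal lists 168 of 5288 (3.18% against 8%). The share of the chosen regions was the lower one in each of these settings. Knockout ranks were below wild type at 356 regions with the replicate block (5.59% against 7.07%) and above at 524 (8.22% against 6.55%). Without 1 library they were below at 300 to 369 (4.71 to 5.79% against 5.95 to 6.57%). They were then above at 416 to 516 (6.53 to 8.10% against 5.78 to 6.17%). Fewer libraries make non-overlap easier by construction. In each of these settings that gave both counts, more regions were higher in Th2 than in Th1. Deviations of same-numbered libraries correlated at -0.0179 to 0.0254 across regions. With 2 libraries per group this cannot show whether same-numbered samples shared an animal or a batch. List shares moved with the window, on small counts. B cell genes had 91.7% in gene bodies (11 of 12) and 44.4% with 50 kb on each side (12 of 27). AP-1 and BATF genes had 7.14% in bodies (1 of 14) and 31.5% by nearest start (17 of 54). Th2 genes had 30% in bodies (6 of 20) and 56.9% by nearest start (29 of 51). Housekeeping and cytotoxic genes had 0% in bodies (0 of 11 and 0 of 5). Over all protein-coding gene bodies, 3709 of the 16476 regions open in all 8 had no naive peak. The AP-1 share was 23.7% to 30% under 4 settings added after seeing the data.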
